A study of Mus musculus with 2 samples.

Results

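The Ly6, Lypd and Pate genes of the mouse encode small cysteine-rich proteins of the Ly6/uPAR superfamily and were measured here in poly(A)-selected RNA of whole adult testis. Members were all protein-coding genes whose GENCODE M21 symbol begins with Ly6 and a letter, or with Lypd or Pate and a digit. This gave 30 of the 21474 protein-coding genes in the tables, namely 17 Ly6, 9 Lypd and 4 Pate genes. The study holds 1 group of 2 libraries, both from testes of male C57BL/6J littermates aged 8 weeks, untreated and with no genetic change named in the labels. The libraries are called biological replicates 1 and 2 but share a donor identifier, and whether they came from different animals is thus unsettled. With 1 group there was no comparison between conditions and no p-value, and each SD and each ratio of the libraries measures only the spread between these samples, which may be technical. Over Ensembl genes the estimated read counts of replicates 1 and 2 summed to 49023238 and 51465728, and absence of counts allows a share of up to 6.12e-06% and 5.83e-06%, that of 3 counts. Marker genes of late spermatocytes, round spermatids, elongating spermatids, Leydig cells and Sertoli cells chosen for a check of the tissue label, 6, 6, 6, 6 and 8 in number, were all present at a level of 1 transcript per 1000000 (TPM) or more in each library. The limit and all intervals below cover counting error only.

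Proteins of this superfamily fold into a finger-shaped domain held together by disulfide bonds, the LU domain. Many are fixed to the outer face of the cell membrane by a glycosylphosphatidylinositol (GPI) anchor, while Pate proteins are mostly secreted. In the male tract some act on sperm during maturation, migration and contact with the egg, and elsewhere members mark blood cells, vessels and epithelia or bind nicotinic receptors.

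The LU domain usually ends in a run of cysteines followed by an asparagine, and this was looked for in the coding sequences of GENCODE M21 transcripts, for each member in its most abundant coding transcript or, for the 3 without counts, the longest. The signature searched, in frame and on the coding strand, was 2 adjacent cysteine codons, 4 codons of any kind, a cysteine codon and an asparagine codon, 24 bases in all. It was present in 24 of the 30 members (80%), against 63 of 21377 protein-coding genes (0.295%) searched in their longest coding sequence. The sequences below show it in a choice of the members that hold it, with close copies of some. They run 5′ to 3′ on the coding strand, with the cysteine and asparagine codons in capitals.
Ly6k: TGCTGTcaatgggactcaTGTAAT
Ly6e: TGCTGCcaaagctccttcTGCAAC
Ly6g6c: TGCTGTgacaaggataacTGTAAC
Ly6g5b: TGCTGCcagtacgattacTGCAAC
Ly6a: TGTTGCcaggaagacctcTGCAAT
Ly6i: TGTTGCcaggaagacctcTGCAAT
Ly6c1: TGTTGCagcgaagacctcTGCAAT
Ly6c2: TGTTGCagcgaagacctcTGCAAT
Ly6f: TGTTGCaaggaagacctcTGCAAT
Ly6g: TGTTGCaaggaagacctcTGCAAT
Lypd5: TGCTGCgagggccacctcTGCAAC
Lypd8: TGCTGCcaaggagagtccTGCAAT
Pate3: TGTTGCaactctgattttTGTAAC
The pairs Ly6a and Ly6i, Ly6c1 and Ly6c2, and Ly6f and Ly6g are identical over these bases. Only the first gene of each pair reached a TPM of 1 in any library. All 12 members on chromosome 15 held the signature, followed by 27 to 46 more codons. Over all members with it, the number of codons after it ranged from 2 in Pate4 to 150 in Lypd8. The 6 members without it were Lypd4, Lypd6, Lypd9, Pate1, Pate2 and Ly6g6f. This holds for the coding transcripts chosen here, since 25 members held the signature when the longest coding sequence was taken.

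Cysteine codons made up a median of 8.03% of codons over the members and 2.12% over all protein-coding genes. They ranged from 11.2% in Lypd1 and 11.1% in Pate4 down to 2.67% in Ly6g6f. The value of Lypd1 is that of a coding sequence of 89 codons, whose transcript was chosen on 2 and 3 counts. Ly6g6f carries the family's name but its product is known as an immunoglobulin superfamily protein. Of the 14 members with a mean level of at least 1 TPM, 10 held the signature, and so did 14 of the 16 members under that level.

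**Figure D1:**
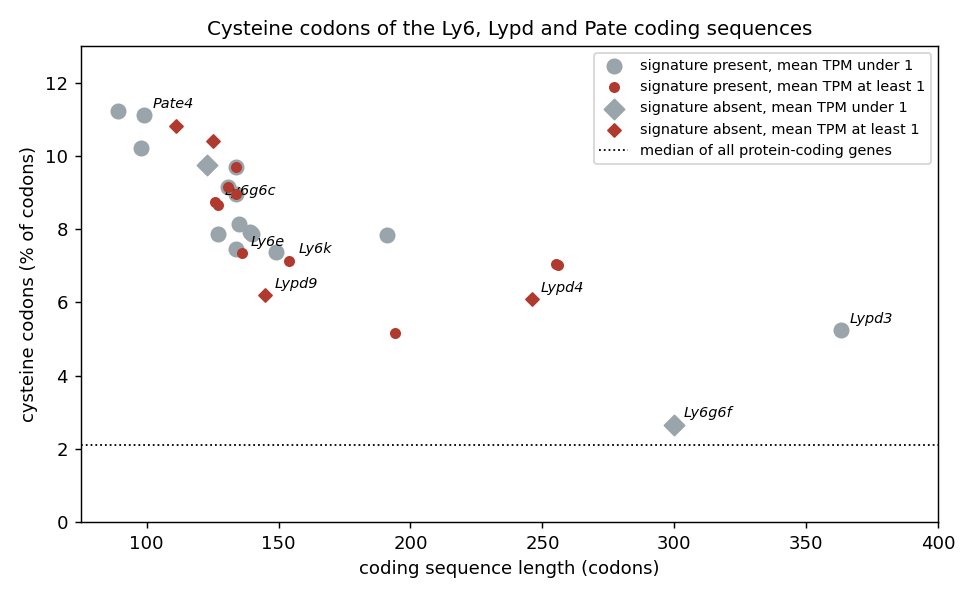
Each point is 1 of the 30 members, by the length of its coding sequence in codons and the percent of its codons that encode cysteine; circles hold the signature, diamonds do not, and red marks a mean TPM of at least 1. All members lie above the dotted median of protein-coding genes (2.12%), Ly6g6f nearest to it at 2.67%.

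The TPM, a level per transcript length that the authors deposited for each gene, was used to set members side by side. In testis a few members were abundant and most were scarce. A gene is called detected here where its TPM reached 1 in each library. Detected were 10 of 30 members (33.3%), against 62.1% of protein-coding genes. At the other end 5 of 30 (16.7%) had a mean TPM over 100, against 7.75% of protein-coding genes. The median of the mean TPM was 0.968 over members and 3.58 over protein-coding genes. Summed over members, the TPM was 1700 in replicate 1 and 1554 in replicate 2, of which the 5 highest genes, Lypd4, Ly6k, Lypd9, Ly6e and Ly6g6c, held 95.04% and 97.89%. A further 6 members reached a TPM of 1 in 1 library only, and 14 stayed under it in both. Among these 14 were 3 with no count in either library (10%), a state shared by 11% of protein-coding genes. In whole tissue, fewer cells of a type and less RNA per cell cannot be told apart.

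**Figure D2:**
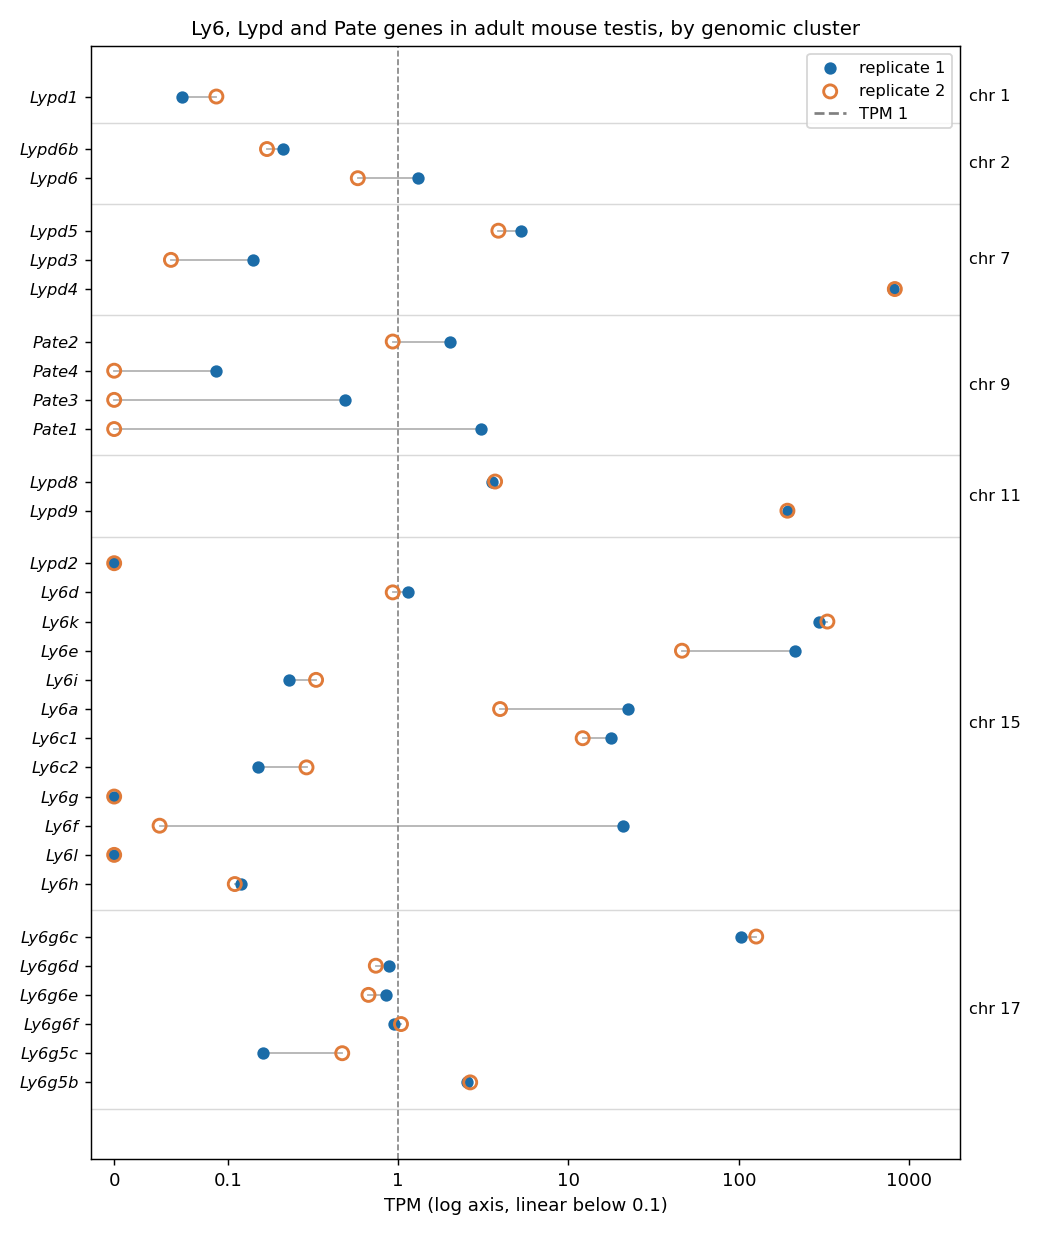
The TPM of the 30 members is shown on a log axis, with replicate 1 as filled and replicate 2 as open points, grouped by the chromosome of their cluster. Lypd4, Ly6k, Lypd9 and Ly6g6c lie above 100 in both libraries, and Ly6e, Ly6a, Ly6f and the Pate genes are higher in replicate 1.

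Members fall into 7 places of the mm10 assembly when those at most 1 Mb apart are joined. The highest member lies in the cluster of 3 on chromosome 7, with Lypd5 and Lypd3, between 24349196 and 24869941. Lypd4, on the minus strand at 24864620 to 24869941, encodes a GPI-anchored protein of the sperm acrosome that is needed for male fertility in mice. Its TPM was 808 in the first library and 824 in the second, a mean of 816 ± 11.3 (SD, n = 2), from 36800 and 38975 counts. Lypd4 ranked 132nd of all protein-coding genes, above 99.4% of them. The libraries differed by a log2 ratio of 0.01 for Lypd4 (replicate 2 over replicate 1, 95% counting interval -0.01 to 0.03). One transcript, Lypd4-201, held 97.5% and 97.4% of its TPM.

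The other members of this cluster were far lower. Lypd5 had a TPM of 5.27 and 3.88 (4.58 ± 0.983; SD, n = 2). Lypd3, known from stratified epithelia, had a TPM of 0.14 and 0.05 from 8 and 3 counts. The highest member and one near the lower end thus lie within 521 kb. Of the 18 other protein-coding genes inside these bounds 13 were detected. Highest among them were Irgc1 (1458 ± 216), Tex101 (420 ± 72.0) and Smg9 (141 ± 14.99; all SD, n = 2). Tex101 encodes a germ cell LU protein that binds the product of Ly6k. Ceacam10, named after its values were seen, differed most between the libraries among these neighbours, with 1683 and 9 counts and a log2 ratio of -7.62 (-8.76 to -6.70).

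On chromosome 11 the neighbours Lypd8 and Lypd9 also lay far apart in level. Lypd9, on the minus strand at 58446149 to 58452923, had TPM values of 194 and 193 (193 ± 0.778; SD, n = 2), from 2720 and 2782 counts. Lypd8, known for a protein of the colon that keeps flagellated bacteria away from the epithelium, had a TPM of 3.58 and 3.71 (3.65 ± 0.0919; SD, n = 2). Both genes gave nearly the same value in the 2 libraries, with log2 ratios of -0.04 (-0.12 to 0.03) for Lypd9 and 0.03 (-0.31 to 0.36) for Lypd8.

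The largest cluster, on chromosome 15 between 74732247 and 75567255, has 12 members, and 4 of them were detected. Ly6k, on the minus strand at 74796874 to 74799986, encodes a GPI-anchored germ cell protein needed in mice for sperm to enter the oviduct. Its TPM values were 296 and 331 (314 ± 24.5; SD, n = 2), the second highest of the members and above 97.7% of protein-coding genes. The transcript Ly6k-201 held 95.5% and 96.7% of it. An antisense gene that overlaps exons of Ly6k, Gm17189, had a TPM of 1.77 and 1.23. Libraries were stranded per the labels, but the sources used here do not say whether strand was used in counting, so values of members with exons overlapped in this way are uncertain.

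Ly6e, on the plus strand at 74955051 to 74959905, encodes an interferon-inducible surface protein found in many tissues. Its TPM was 214 for replicate 1 but 46.4 for replicate 2, a mean of 130 ± 118 (SD, n = 2). Ly6e thus stood above Lypd9 in replicate 1 and below Ly6g6c in replicate 2, and its place in the order of levels is not settled by these samples. The transcript Ly6e-215 led in both libraries with 69.6% and 70.7% of TPM, followed by Ly6e-213 with 26.1% and 22.7%.

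Farther along lie genes that are best known as surface markers. Ly6a, which encodes the stem and progenitor cell antigen Sca-1, also found on vessels, had TPM values of 22.4 (replicate 1) and 3.97 (replicate 2), a mean of 13.2 ± 13.004 (SD, n = 2). Ly6c1, known from endothelium, had a TPM of 17.8 and 12.1 (14.9 ± 3.99; SD, n = 2). Ly6f stood at 21.04 TPM in replicate 1 and at 0.04 in replicate 2, from 534 counts and 1 count. Ly6a and Ly6f were thus high in replicate 1, and Ly6c1 was above 10 in both. Ly6a was spread over several transcripts, with Ly6a-204 leading at 59.3% and 53.7% of TPM and Ly6a-201 at 0% and 24.9%. Ly6c1-201 held 70.9% and 84.4% of the TPM of Ly6c1, and Ly6f-202 held 78.6% of that of Ly6f in replicate 1.

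Other members of this cluster were near or at 0. Ly6d, a marker of keratinocytes and early B cells, had a TPM of 1.14 and 0.93. Ly6i, Ly6c2 and Ly6h, the last of which is known from brain, lay between 0.11 and 0.33 in both libraries. Lypd2, Ly6g and Ly6l had no count in either. Ly6g is the antigen by which mouse neutrophils are sorted, and the granulocyte gene S100a9 had no count in either library. The 9 lymphocyte and granulocyte markers summed to a TPM of 2.07 and 1.91.

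Near-identical copies could make single values in this cluster uncertain. Coding sequences of Ly6c1 and Ly6c2 were 97.7% identical, with 9 of 393 bases differing, and 9 of the 435 pairs of members were over 80% identical, all within this cluster. Next came Ly6a with Ly6i (86.3%), Ly6f (84.6%) and Ly6g (83.1%). Across the family the median identity was 48.7% for the 92 pairs that share a cluster and 41.7% for the other 343. Ly6c1 had 417 and 300 counts against 2 and 10 for Ly6c2. An expected count that divides reads between genes need not be whole, and 3 of the 60 member values were not whole. These were Ly6c1 (416.99), Ly6c2 (2.01) and, outside this cluster, Lypd4 (36800.1), all in replicate 1. Of protein-coding genes, 17.1% had a count that was not whole in 1 library or both. Of the other protein-coding genes inside the cluster 4 of 9 were detected, led by the LU genes Gml (120 ± 24.3) and Gml2 (73.4 ± 19.2), next to Ly6k, and by 2010109I03Rik (10.98 ± 0.424; all SD, n = 2).

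**Figure D3:**
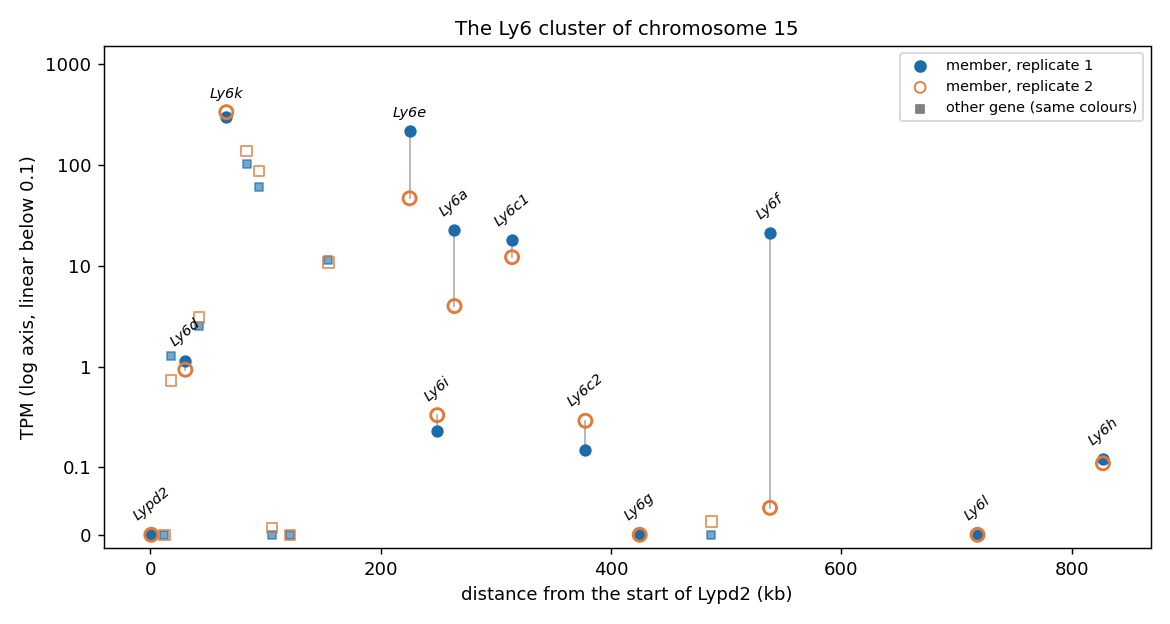
TPM of genes in the chromosome 15 cluster against the distance of the gene's middle from the start of Lypd2 in kb, with members as circles, other protein-coding genes as squares, replicate 1 filled and replicate 2 open. Ly6k and the 2 squares beside it, Gml and Gml2, are high in both libraries, whereas Ly6e, Ly6a and Ly6f are higher in replicate 1.

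Of the 6 members on chromosome 17, in the class III part of the major histocompatibility complex between 35065388 and 35115428, 1 was abundant. Ly6g6c, on the plus strand at 35065388 to 35070050, had TPM values of 104 and 127 (115 ± 16.2; SD, n = 2), from 3146 and 3977 counts. The transcript Ly6g6c-202 held 96.8% and 96.3% of it. Mpig6b, whose exons overlap those of Ly6g6c on the opposite strand, was at a TPM of 3.04 and 3.19. The other protein-coding gene inside the cluster, Abhd16a, had a mean of 115 ± 14.4 (SD, n = 2).

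Its fellow members on chromosome 17 were scarce. Ly6g5b had a TPM of 2.55 and 2.65 (2.60 ± 0.0707; SD, n = 2), while the share of its leading transcript, Ly6g5b-201, went from 53.1% of TPM in replicate 1 to 77.1% in replicate 2. Ly6g6f was at 0.95 and 1.04, Ly6g6d at 0.88 and 0.74, Ly6g6e at 0.85 and 0.67, and Ly6g5c at 0.16 and 0.47. Exons of Ly6g6d and Ly6g6e overlap on opposite strands, so their values are uncertain.

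Members known from nicotinic receptors or the nervous system were low. Lypd1, on chromosome 1, which encodes a modulator of these receptors, had a TPM of 0.06 and 0.09 from 2 and 3 counts, and shares exon positions with Gpr39 (11.5 and 16.2). On chromosome 2, Lypd6b was at 0.21 and 0.17. Lypd6, which encodes an enhancer of Wnt signalling and a receptor modulator, was at 1.30 in replicate 1 and 0.58 in replicate 2. Its counts were nearly equal at 45 and 42, while a transcript of 563 bases held 83.3% of TPM in replicate 1 and 53.2% in replicate 2. For Lypd6, then, the TPM differed between the libraries where the number of reads hardly did.

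The Pate genes on chromosome 9, between 35570284 and 35690318, were low in replicate 1, and in replicate 2 Pate2 alone had counts. Genes of this cluster are known from the epididymis, prostate and other male accessory organs, and Pate4 encodes a seminal vesicle protein. Pate1 had a TPM of 3.05 from 51 counts in replicate 1 and no count in replicate 2. Pate3 had 0.49 from 22 counts in replicate 1 and none in replicate 2. Pate4 had 3 counts in replicate 1 and none in replicate 2, at or under the limit of detection in both.

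Pate2 lay at a TPM of 2.03 and 0.93 from 130 and 41 counts. Its transcripts differed as well, Pate2-202 holding 51.6% of TPM in replicate 1 and 8.75% in replicate 2, where the non-coding Pate2-203 held 53.2%. Pate2 spans the other 3 on the opposite strand and shares exon positions with them and with Hyls1, which had a TPM of 37.2 and 34.4, so Pate values are uncertain. Over the 14 members that averaged 1 TPM or more, the leading transcript held over 50% of TPM in both libraries in 12, Pate1 and Pate2 being the exceptions. Pate1 failed for lack of counts in replicate 2, and Pate1-201 held 82.4% in replicate 1. Ly6f passed in replicate 2 on 1 count. Ly6d, Lypd5 and Lypd9 have 1 annotated transcript each and thus pass by construction. The same share over all protein-coding genes was not computed, so a leading transcript cannot be called a trait of these members.

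The libraries were then compared on counts scaled by TMM (trimmed mean of M values), for the 16 members with at least 20 counts on average. Because the minimum is on the average, Ly6f and Pate1 passed it through replicate 1 alone. Over 2-fold higher in replicate 1 were 5 of 16 members (31.2%), Ly6e, Ly6a, Ly6f, Pate1 and Pate2, where the same held for 3.12% of 15983 protein-coding genes. None of the 16 was over 2-fold higher in replicate 2, as 0.901% of protein-coding genes were. In either direction it was these 5 of 16, against 4.02%. One library stood on each side, so these ratios have no replicate check. The median log2 ratio was -0.25 over these 16 members and -0.000569 over protein-coding genes.

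The counts of Ly6e were 6912 and 1591, which gives a log2 ratio of -2.20 (95% counting interval -2.28 to -2.12). For Ly6a, with 633 and 116 counts, it was -2.53 (-2.82 to -2.24). Both intervals lie well beyond 2-fold. Pate2 had a log2 ratio of -1.74 (-2.29 to -1.23). For Ly6f, with a single count in replicate 2, the ratio was -9.14 with a wide interval of -14.44 to -6.65. Pate1 was 17.9-fold higher in replicate 1 when its missing count in replicate 2 is set to 3. The interval of Pate1 allowed a log2 ratio of up to -3.81, a smaller difference. Pate3, under the minimum of 20 counts, was 7.74-fold higher by the same floor, and its interval allowed a log2 ratio of up to -2.53.

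The other members stayed within 2-fold. Ly6c1 lay at -0.55 (-0.77 to -0.33) and Lypd5 at -0.47 (-0.82 to -0.11), both lower in replicate 2. Ly6k at 0.14 (0.09 to 0.18) and Ly6g6c at 0.26 (0.19 to 0.33) were higher in replicate 2. Their intervals excluded 0 for counting error. Intervals of Ly6d, Lypd6, Lypd9, Ly6g5b, Lypd4, Lypd8 and Ly6g6f included 0.

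**Figure D4:**
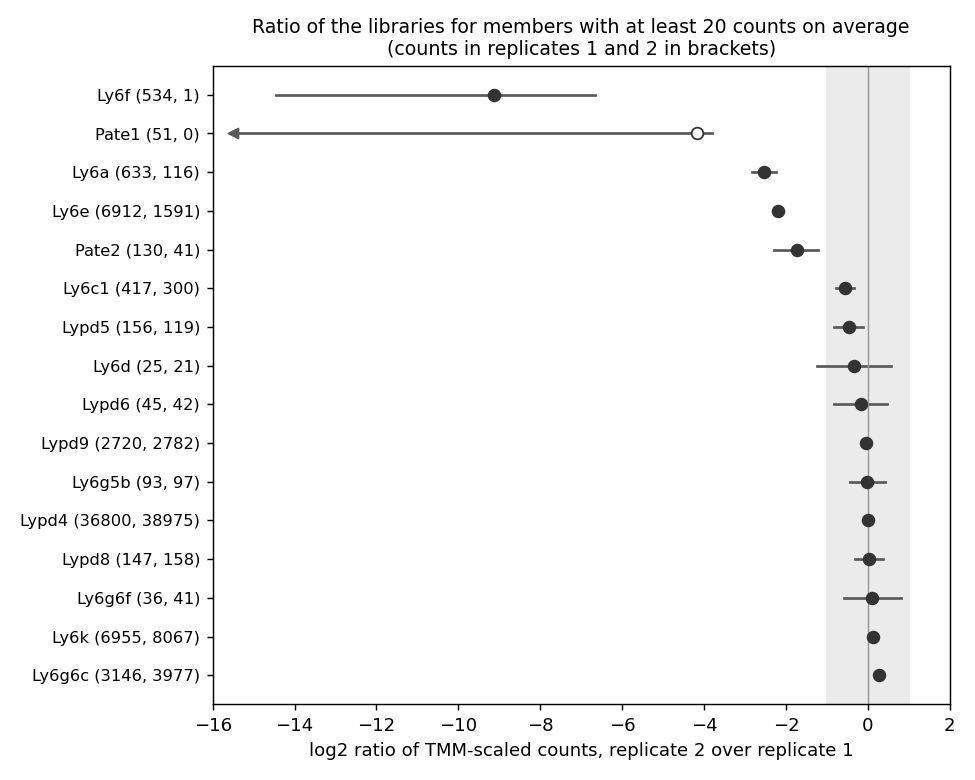
Log2 ratios of TMM-scaled counts, replicate 2 over replicate 1, for the 16 members with at least 20 counts on average, with 95% counting intervals as lines and counts in brackets. The shaded band marks 2-fold; Ly6f, Pate1 (open, its replicate 2 count of 0 set to 3, interval unbounded to the left), Ly6a, Ly6e and Pate2 lie outside it.

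Markers of other cells were also compared between the libraries. Of 11 epididymis markers 1, Rnase10, was detected, a gene also on the fertility list, and the summed TPM of the list was 465 in replicate 1 and 3.61 in replicate 2. Nearly all of it was Crisp1, at 454 and 0.2, followed by Adam7 at 6.87 and 0 and Rnase9 at 0.9 and 0.02, while Lcn10, Ovch2 and Spag11b had no count in either. Over the 11 listed, 5 were higher in replicate 1 and 3 in replicate 2. All 11 peritubular and stromal markers were higher in replicate 1, with a summed TPM of 366 and 194. Over 2-fold apart were 4 of them, against 4.02% of protein-coding genes. The part of these cells in the ratios of Ly6e, Ly6a, Ly6f, Pate1 and Pate2 was not tested.

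Endothelial markers summed to a TPM of 71.6 and 56.0, and 8 of the 10 had the higher TPM in replicate 1 (median log2 ratio -0.20). The 11 macrophage markers summed to 58.6 and 55.5 (median -0.18), of which Itgam alone was over 2-fold apart, at -1.13. Keratinocyte and skin markers were low, at a sum of 3.09 and 0.88 (median -3.33 over the 3 with enough counts). Krt5 stood at 1.07 and 0.11 and Krt14 at 1.08 and 0.03. Krt10, the highest of the list, was at 0.79 and 0.68, with a log2 ratio of -0.23 (-0.79 to 0.33). Krt1, Lor and Dsg3 were under the count minimum. All 8 Sertoli markers had the higher TPM in replicate 2 (median 0.34). Medians were 0.17 for round spermatid, 0.13 for late spermatocyte, -0.05 for elongating spermatid and 0.07 for Leydig markers.

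Since Ly6e and Ly6a are interferon-inducible, 14 other genes of that kind were listed after values had been seen. Among them B2m, the light chain of class I antigen complexes, stood at a TPM of 145 (replicate 1) and 31.0 (replicate 2), and its log2 ratio was -2.25 (-2.36 to -2.15). It was the only gene of the 11 with at least 20 counts on average to pass 2-fold, as 4.02% of protein-coding genes did. Of the 14, 12 had the higher TPM in replicate 1 and 2 in replicate 2. Their summed TPM was 316 and 195, and the median log2 ratio was -0.15 over the 11. H2-K1, at 91.5 and 92.8, was even between the libraries. Isg15, with 19 and 7 counts, was under the count minimum.

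**Figure D5:**
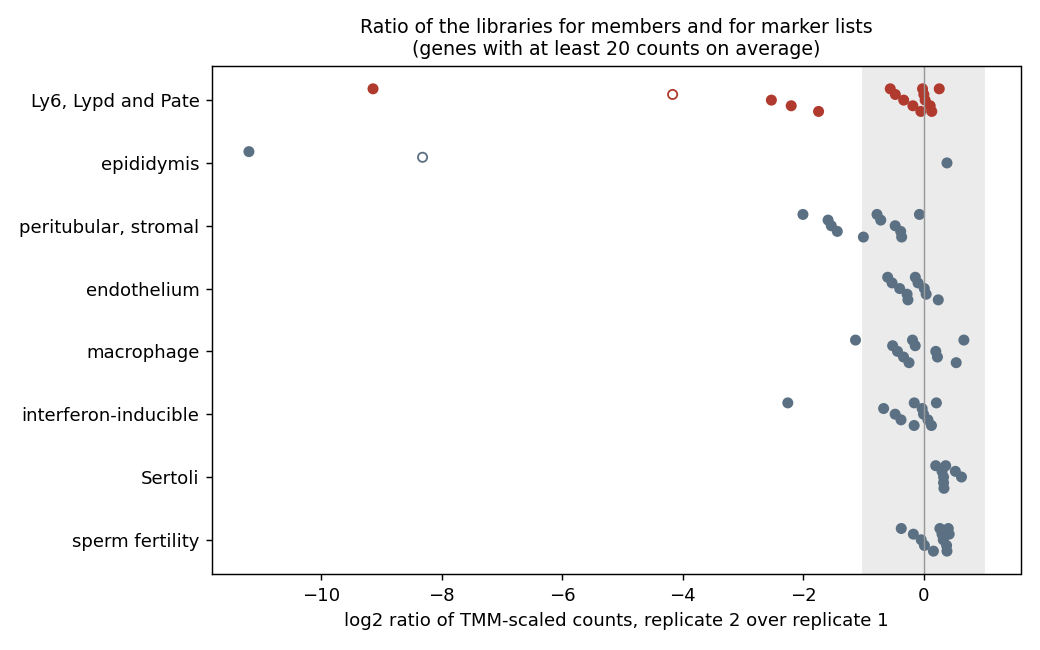
Log2 ratios of TMM-scaled counts, replicate 2 over replicate 1, with 1 point per gene, for the members (red) and for marker lists (grey), limited to genes with at least 20 counts on average; open points had no count in replicate 2 and were set to 3. Epididymis markers reach -11.20 (Crisp1), and peritubular and stromal markers all lie below 0.

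Lists of LU relatives, of sperm fertility genes and of GPI anchor genes were also measured. Of 13 further LU genes outside the symbol rule 10 were detected, led by sperm genes, where 62.1% of protein-coding genes were detected. Spaca4, for an acrosomal protein that takes part in binding the egg coat, had a TPM of 527 ± 5.63, Tex101 420 ± 72.0 and the acrosomal gene Acrv1 409 ± 115 (SD, n = 2). Slurp1 had no count. None of the 11 with at least 20 counts on average was over 2-fold apart, and only 4.02% of protein-coding genes were.

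The fertility list held 12 genes of sperm proteins tied to the membrane protein ADAM3 and to passage into the oviduct. Ly6k and Lypd4 act in that passage. All 12 were detected, against 62.1% of protein-coding genes. Adam3 itself led with 1046 and 788 (917 ± 183) from 52223 and 55671 counts, followed by Tex101 and by the peptidase gene Ace (356 ± 26.5), and Rnase10 was lowest (2.83 ± 0.573; all SD, n = 2). Between them lay Prss37, Adam1a, Pmis2, Adam2, Clgn, Pdilt, Calr3 and Tpst2, from 221 ± 20.4 for Prss37 to 6.31 ± 0.813 for Tpst2 (SD, n = 2). None was over 2-fold apart between the libraries, which is near the 4.02% of protein-coding genes for a list of this size.

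All 27 listed genes of the machinery that makes and remodels the GPI anchor were detected, against 62.1% of protein-coding genes. Their median TPM was 18.6. Pgap2, which acts on the lipid of the anchor in the Golgi, was highest at 367 ± 35.2, then Dpm2 at 92.0 ± 4.10 and Pigf at 86.5 ± 14.2 (SD, n = 2). Pgap1, which removes a fatty acid from the new anchor, was lowest at 1.255 ± 0.0778. None of the 27 was over 2-fold apart, where 4.02% of protein-coding genes were, so few would be looked for in this list.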

How the data were processed

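Members and gene lists were chosen with earlier results of these data known. Gene and transcript tables were used on the mm10 assembly with annotation M4, per the deposited readme. Deposited expected counts are estimated read counts computed by the authors from alignments of 1 replicate to the transcriptome. TPM values, per 1000000 transcripts, and each transcript's percent of its gene's total are also as deposited, with aligner and counting program not given in the sources used here. Splice junctions and contigs on mm9 were not used here.

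Symbols, positions and types came from GENCODE M21 by unversioned identifier. Expected counts were rounded and scaled by TMM over 26661 genes with edgeR 4.0.16 in R 4.3.3. DESeq2 1.42.0 size factors were an alternative. Ratios have exact 95% binomial intervals, which cover counting error only. A count of 0 was set to 3. The ratio was tested on data simulated with counting error alone, which lack the further spread between these libraries. Libraries differed by a chi-square of 34.1 per gene, above sampling noise, so they are not 1 library deposited again. Coding identities came from global alignment in Biopython 1.88.

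Named in full were members with a mean TPM of at least 1 or over 2-fold apart with at least 20 counts on average. Others were given by range. For the LU, GPI anchor and fertility lists, the 3 highest genes and the lowest were named, other genes after their values were seen. A planned protein comparison was made on codons instead, chosen after seeing the data, since protein sequences were not used here.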

Additional observations from a re-analysis of the deposited data

How the results depend on the processing

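The count of 10 members detected at 1 TPM became 16 at a TPM of 0.5, 6 at a TPM of 5 and 17 when at least 10 counts in both libraries were asked for instead, so it is set by the threshold. It was 11 to 15 in single libraries. The median level of members was 0.625 to 1.045 in single libraries. Of the 5 members over 2-fold higher in replicate 1, 3 were left at a minimum of 100 counts, which removes Pate1 and Pate2 by construction. At a minimum of 5 counts 7 members were over 2-fold higher in replicate 1, Lypd3 and Pate3 being added, and 1 member, Ly6c2 with 2 and 10 counts, was over 2-fold higher in replicate 2. Ly6e, Ly6a, Ly6f and Pate1 were over 2-fold higher in replicate 1 under all 6 scalings and units tried, and Pate2 under 5, the exception being log2(TPM + 1) at -0.65. With log2(TPM + 0.1), Lypd6 also passed 2-fold, at -1.04. The leading transcript held over 50% of TPM in 13 to 14 of 14 members in single libraries, and the signature was in 25 members in place of 24 with the longest coding sequence, an alternative chosen after seeing the data. No ratio turned its direction among the members over 2-fold apart. No paired analysis was possible because there is 1 group. Depth limits Pate4, Lypd1, Ly6g, Ly6l and Lypd2, at 3 counts or fewer in both libraries.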
